A study of Mus musculus with 4 samples.

Results

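The genes described here are 10 members of the semaphorin, plexin and neuropilin families, taken by symbol from both deposited tables: the ligands Sema4a, Sema4b, Sema4d and Sema6d, the plexin receptors Plxna1, Plxnb2, Plxnc1 and Plxnd1, and the co-receptors Nrp1 and Nrp2. All 10 were found in both tables, out of 15608 gene identifiers listed in either table. RNA-seq was made from wild-type male C57BL/6 mice at postnatal day 28, from CD45-positive, Cx3cr1-positive cells of the periosteum, the sheath around bone, which the study calls periosteum-resident macrophages. The ACE-positive and ACE-negative libraries part these cells by surface angiotensin-converting enzyme, and the CD74-positive and CD74-negative libraries part them by the invariant chain of MHC class II. Each of the 4 groups is a single library with no replicate, the number of animals behind it is not given in the labels, and no difference below has a replicate check.

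Semaphorins are secreted or membrane-bound guidance proteins that were found through their effect on growing axons and that also act on vessels, immune cells and bone cells. They bind plexins, whose inner part acts on small GTPases and so on the cytoskeleton and adhesion. Secreted class 3 semaphorins mostly need a neuropilin as co-receptor, whereas class 4 and class 6 semaphorins sit in the membrane and bind plexins directly. Neuropilins also bind vascular endothelial growth factors. In mouse bone, Sema4D from osteoclasts is known to restrain osteoblasts, and Sema6D acts on osteoclasts and dendritic cells through Plexin-A1.

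Of the 10 genes, 3 differed widely between the positive and negative libraries and 7 by little. Nrp2, Plxna1 and Sema6d were 9.15-fold to 48.0-fold higher in the positive library of both sorts. Plxnb2, Sema4d, Sema4a, Plxnd1, Nrp1, Plxnc1 and Sema4b differed by at most 2.15-fold in either sort. The promoters of Nrp2 and Sema6d are shown because both genes were far higher in both positive libraries, and that of Plxnb2 because it was the most abundant of the 10 and differed little. RefSeq promoter windows (GRCm38.p6) matched 9 of the 10 genes, and Plxna1 had none. Each sequence is the part of the 250 bases before the RefSeq start that lies outside the annotated gene, on the gene's strand, and capitals mark the GC box GGGCGG on either strand.
Nrp2 (chr1:62703067-62703284, plus strand): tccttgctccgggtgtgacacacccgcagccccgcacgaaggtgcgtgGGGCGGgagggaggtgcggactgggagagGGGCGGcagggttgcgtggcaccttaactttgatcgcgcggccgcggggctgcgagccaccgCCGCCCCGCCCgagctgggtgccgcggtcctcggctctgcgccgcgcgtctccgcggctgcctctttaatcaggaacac
Sema6d (chr2:124089719-124089968, plus strand, the upstream one of 2 listed starts): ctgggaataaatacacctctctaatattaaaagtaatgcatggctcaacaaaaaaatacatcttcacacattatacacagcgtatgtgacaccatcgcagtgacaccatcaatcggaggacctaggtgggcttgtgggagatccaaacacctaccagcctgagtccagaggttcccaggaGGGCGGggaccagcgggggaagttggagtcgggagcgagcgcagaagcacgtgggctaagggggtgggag
Plxnb2 (chr15:89180789-89181038, minus strand, the upstream one of 2 listed starts): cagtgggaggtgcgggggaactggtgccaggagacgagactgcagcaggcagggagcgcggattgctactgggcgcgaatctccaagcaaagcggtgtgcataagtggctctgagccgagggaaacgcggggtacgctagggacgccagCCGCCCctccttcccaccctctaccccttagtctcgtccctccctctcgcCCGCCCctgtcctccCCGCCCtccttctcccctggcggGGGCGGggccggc
GC boxes numbered 4 in the Nrp2 sequence, where adjoining boxes share 1 base, 1 in that of Sema6d and 4 in that of Plxnb2. The full 250-base windows held 32 CpG dinucleotides for Nrp2, 9 for Sema6d and 20 for Plxnb2, against a median of 6 over 32851 windows, of which 32.7% hold a GC box. The motif GAGGAAG, bound by the myeloid factor PU.1, was in none of the 3 windows and is in 10.6% of all windows. Among the genes not shown, at least 1 window of Nrp1, Sema4a, Sema4b, Plxnc1 and Plxnd1 held it, and those of Sema4d did not. These matches describe letters, and gene totals do not say which start was used.

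Levels are counts-per-million (CPM) after TMM scaling of each sort, with 95% intervals in brackets that cover counting error only. The smallest library, CD74-negative, held 7020232 reads and the largest, CD74-positive, 13282126. A gene was called higher or lower where its mean was at least 5 CPM, the absolute log2 ratio of CPM + 1 reached 1, and the fold had an interval without 1. Among 9656 genes tested in the ACE sort this rule called 18.1% (9.46% as higher and 8.62% as lower in ACE-positive cells), and among 9719 genes in the CD74 sort 16.8% (9.08% as higher and 7.73% as lower in CD74-positive cells). Of those calls 52.3% were higher in the ACE sort and 54.0% in the CD74 sort, but 67.2% and 74.8% under plain totals. They were 62.6% and 67.2% when the 50 most abundant genes were left out of the totals, 65.2% and 62.1% with ratios centred on genes of like length, and 61.6% and 54.9% with ratios centred on genes of like GC content. Plain totals moved the median log2 ratio of all tested genes by 0.13 in the ACE sort and 0.18 in the CD74 sort.

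Ratios rose with gene length in both sorts, and the 10 genes are long. Their exon lengths ran from 5406 to 11842 bases, against a median of 4653 bases for genes tested in the ACE sort, and 5 of the 10 lay in the longest 20%. The median log2 ratio was 0.35 for the longest 20% of genes and -0.51 for the shortest 20% in the ACE sort, and 0.47 and -0.61 in the CD74 sort. For the 10 genes, values centred on genes of like length are therefore given where they change a call. The mean of Plxna1 and Sema6d passed 5 CPM through the positive libraries alone, so a gene like these had to differ in order to be tested.

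The libraries also differed in markers of cell types. The 8 macrophage and monocyte markers, which include Csf1r, Adgre1 and Mertk, had reads in all 4 libraries and summed to 5179 CPM in the ACE-positive and 2424 CPM in the ACE-negative library, and to 3617 CPM in the CD74-positive and 2405 CPM in the CD74-negative library. Of them 4 were called higher in the ACE sort and 1, Mertk, in the CD74 sort, beside 9.46% and 9.08% of all tested genes. Centred by gene length, 5 and 3 of these markers were called higher, beside 9.11% and 6.75% of all tested genes. Markers of neutrophils were abundant, at 11603 CPM in ACE-positive and 16330 CPM in ACE-negative cells and at 14196 CPM in CD74-positive and 27879 CPM in CD74-negative cells over 10 genes. These are short genes, with a median of 963 bases. Their median log2 ratios were -0.40 (ACE sort) and -0.79 (CD74 sort), but 0.08 and -0.12 relative to genes of like length. Endothelial cells also carry neuropilins and Plexin-D1, and the 10 endothelial markers summed to 128 CPM in ACE-positive and 68.4 CPM in ACE-negative cells and to 119 CPM in CD74-positive and 84.2 CPM in CD74-negative cells, with none at 0. Of them 4 were tested: Kdr and Cdh5 were called higher in both sorts, Egfl7 was called lower in the CD74 sort and not called in the ACE sort, and Pecam1 was called in neither. Osteoclasts also use these genes, and their 8 markers summed to 956 CPM in ACE-positive and 407 CPM in ACE-negative cells and to 826 CPM in CD74-positive and 653 CPM in CD74-negative cells. Of 5 tested osteoclast markers 4 were called higher in the ACE sort and 3 in the CD74 sort (9.46% and 9.08% over all tested genes), and Calcr had 0 reads in ACE-positive cells. Relative to genes of like length the osteoclast counts were 5 and 4 (9.11% and 6.75% over all tested genes). The part of these cell types in the results below was not tested. In bulk RNA, a difference in the share of a cell type and one in RNA per cell cannot be told apart.

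**Figure D1:**
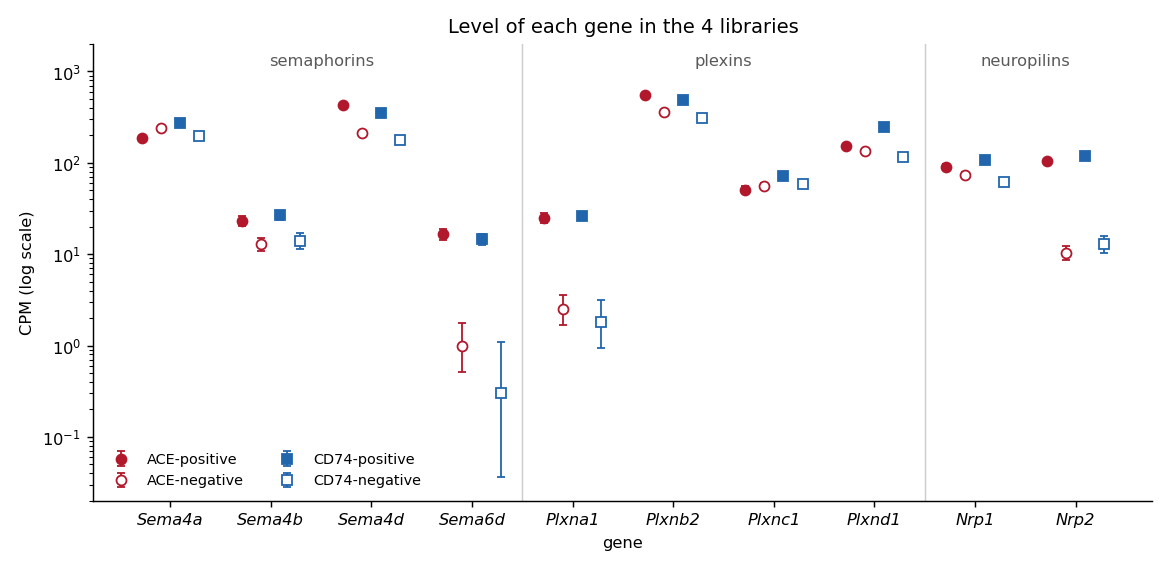
CPM on a log axis for the 10 genes in the 4 libraries, with exact Poisson 95% intervals for counting error as bars (filled, positive libraries; open, negative libraries). Nrp2, Plxna1 and Sema6d show wide gaps between filled and open symbols in both sorts, with Nrp2 at 105 CPM in ACE-positive and 10.4 CPM in ACE-negative cells, while Plxnc1 stays between 50.8 and 71.0 CPM.

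Among the ligands, Sema4d was the most abundant semaphorin by reads in both positive libraries. Sema4d (ENSMUSG00000021451, GRCm38 chromosome 13, 51685529 to 51793747, minus strand) encodes a membrane semaphorin of leukocytes that is shed from the surface and binds B-class plexins and CD72. It stood at 431 CPM [419 to 443] in ACE-positive and 211 CPM [203 to 220] in ACE-negative cells, and at 354 CPM [344 to 364] in CD74-positive and 178 CPM [168 to 189] in CD74-negative cells. Its folds were 2.04 [1.94 to 2.14] in the ACE sort and 1.98 [1.86 to 2.12] in the CD74 sort, with the ACE value just past the threshold for a call and the CD74 value just short of it. The ACE call was lost relative to genes of like length (log2 ratio 0.89, against 1.02 uncentred). In the CD74 sort the log2 ratio of 0.98 was past the threshold under plain totals (1.17) and with the most abundant genes left out (1.10).

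Sema4a (ENSMUSG00000028064, chromosome 3, 88435959 to 88461182, minus strand) encodes a membrane semaphorin that acts on T cells and on Plexin-D1 of endothelium. It lay on opposite sides of 1 in the sorts. The ACE-positive library held 187 CPM [179 to 195] and the ACE-negative library 243 CPM [235 to 252], a fold of 0.767 [0.725 to 0.811]. The CD74-positive library held 272 CPM [264 to 281] and the CD74-negative library 196 CPM [185 to 207], a fold of 1.39 [1.31 to 1.48]. Neither difference was large enough for a call. The log2 ratio was between -0.39 and -0.25 in the ACE sort and between 0.38 and 0.66 in the CD74 sort over 7 alternative settings.

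Sema6d (ENSMUSG00000027200, chromosome 2, 124089969 to 124667770, plus strand), whose protein pairs with Plexin-A1, had the largest fold of the 10 genes in both sorts. It had 190 reads, or 16.6 CPM [14.3 to 19.1], in ACE-positive cells and 12 reads, or 1.00 CPM [0.517 to 1.75], in ACE-negative cells. In the other sort it had 207 reads, or 14.6 CPM [12.7 to 16.7], in CD74-positive cells and 2 reads, or 0.304 CPM [0.0368 to 1.10], in CD74-negative cells. The folds were 16.5 [9.25 to 32.6] in the ACE sort and 48.0 [13.1 to 399] in the CD74 sort, where the interval is wide because it rests on 2 reads. Sema6d was scarce in both negative libraries, and its intervals do not overlap between the libraries of either sort. Among tested genes its log2 ratio ranked 56 of 9656 in the ACE sort and 11 of 9719 in the CD74 sort.

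Sema4b (ENSMUSG00000030539, chromosome 7, 80186841 to 80226527, plus strand), a further membrane semaphorin of class 4, was low in all libraries. It had 23.3 CPM [20.6 to 26.2] in ACE-positive and 12.8 CPM [10.9 to 15.0] in ACE-negative cells, and 26.6 CPM [24.0 to 29.4] in CD74-positive and 14.0 CPM [11.3 to 17.2] in CD74-negative cells. Its folds of 1.81 [1.48 to 2.22] and 1.90 [1.51 to 2.42] were not called, except under plain totals in the CD74 sort (log2 ratio 1.06).

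Among the receptors, Plxnb2 had the most reads of the 10 genes in every library. Plxnb2 (ENSMUSG00000036606, chromosome 15, 89155549 to 89180788, minus strand) encodes a receptor of class 4 semaphorins. It stood at 557 CPM [544 to 571] in ACE-positive and 358 CPM [348 to 369] in ACE-negative cells, and at 483 CPM [472 to 495] in CD74-positive and 307 CPM [294 to 321] in CD74-negative cells. The folds were close to each other, 1.56 [1.497 to 1.62] and 1.57 [1.496 to 1.65], and neither was called.

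Plxna1 (ENSMUSG00000030084, chromosome 6, 89316314 to 89362620, minus strand) encodes a plexin that serves both class 3 semaphorins, with a neuropilin, and Sema6D. It had 287 reads, or 25.0 CPM [22.2 to 28.1], in ACE-positive cells and 30 reads, or 2.50 CPM [1.69 to 3.57], in ACE-negative cells. The CD74-positive library had 369 reads, or 26.0 CPM [23.4 to 28.8], and the CD74-negative library 12 reads, or 1.82 CPM [0.943 to 3.19]. Its folds were 9.998 [6.85 to 15.1] and 14.3 [8.07 to 27.9], and its log2 ratio ranked 78 of 9656 and 19 of 9719. The antisense gene Gm26811 covers 10.7% of its exon bases, and since the strand setting is not given in the sources used here, reads of that stretch cannot be assigned to 1 strand.

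Plxnd1 and Plxnc1 were called in at most 1 sort. Plxnd1 (ENSMUSG00000030123, chromosome 6, 115954811 to 115995005, minus strand), the receptor of Sema3E that patterns vessels, stood at 154 CPM [147 to 161] in ACE-positive and 136 CPM [130 to 143] in ACE-negative cells. In the other sort it stood at 246 CPM [237 to 254] in CD74-positive and 114 CPM [106 to 123] in CD74-negative cells. Its fold was 1.13 [1.05 to 1.21] in the ACE sort and 2.15 [1.98 to 2.32] in the CD74 sort, where the call was lost relative to genes of like length (log2 ratio 0.80, against 1.09 uncentred). Plxnc1 (ENSMUSG00000074785, chromosome 10, 94790866 to 94944835, minus strand), the receptor of Sema7A, stood at 50.8 CPM [46.8 to 55.1] in ACE-positive and 56.5 CPM [52.3 to 60.9] in ACE-negative cells, and at 71.0 CPM [66.7 to 75.5] in CD74-positive and 59.1 CPM [53.4 to 65.3] in CD74-negative cells. The intervals of its levels overlap in the ACE sort, where the fold was 0.900 [0.804 to 1.01]. In the CD74 sort it was 1.20 [1.07 to 1.35], a direction that turned relative to genes of like length (log2 ratio -0.12, against 0.26 uncentred).

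The neuropilins parted: Nrp2 differed strongly and Nrp1 little. Nrp2 (ENSMUSG00000025969, chromosome 1, 62703285 to 62818695, plus strand) encodes the co-receptor of Sema3F and VEGF-C. It had 1203 reads, or 105 CPM [99.0 to 111], in ACE-positive cells and 125 reads, or 10.4 CPM [8.68 to 12.4], in ACE-negative cells. The CD74-positive library had 1676 reads, or 118 CPM [113 to 124], and the CD74-negative library 85 reads, or 12.9 CPM [10.3 to 16.0]. The folds were 10.1 [8.36 to 12.2] and 9.15 [7.36 to 11.5], and stood at 7.57 and 6.76 after centring by gene length. Nrp1 (ENSMUSG00000025810, chromosome 8, 128358604 to 128503363, plus strand), the co-receptor of Sema3A and VEGF-A, stood at 91.1 CPM [85.7 to 96.8] in ACE-positive and 74.2 CPM [69.4 to 79.2] in ACE-negative cells, and at 107 CPM [102 to 112] in CD74-positive and 62.2 CPM [56.3 to 68.5] in CD74-negative cells. Its folds of 1.23 [1.12 to 1.34] and 1.72 [1.54 to 1.92] were not called.

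**Figure D2:**
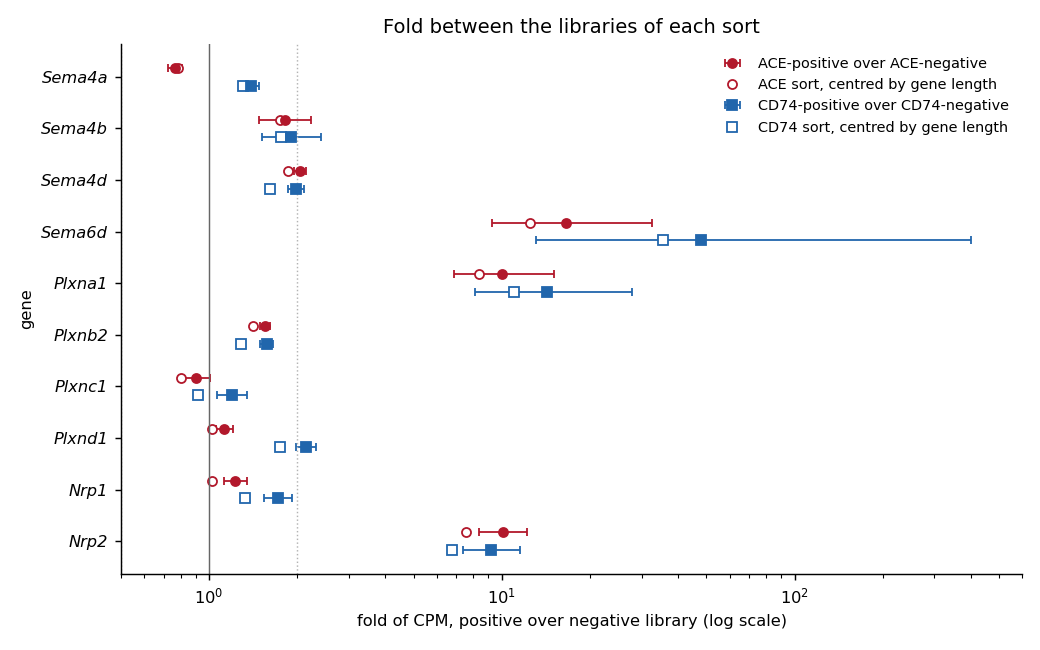
Fold of CPM on a log axis, positive over negative library, for each gene in the ACE and CD74 sorts (filled symbols with exact 95% counting intervals; open symbols, folds centred on genes of like length; dotted line, 2-fold). Nrp2, Plxna1 and Sema6d lie well beyond 2-fold in both sorts with either scaling, while Sema4d in the ACE sort (2.04 before, 1.85 after) and Plxnd1 in the CD74 sort (2.15 before, 1.75 after) cross that line.

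Counted by the rule, 4 of the 10 genes were higher and 0 lower in ACE-positive cells (Sema4d, Sema6d, Plxna1 and Nrp2), where 9.46% of all tested genes were called higher and 8.62% lower. In CD74-positive cells 4 were higher and 0 lower (Sema6d, Plxna1, Plxnd1 and Nrp2), where the background was 9.08% higher and 7.73% lower. After centring by gene length the count was 3 in each sort, Nrp2, Plxna1 and Sema6d, against 9.11% and 6.75% of all tested genes, and 0 were lower, against 4.86% and 4.12%. The median log2 ratio of the 10 genes was 0.72 in the ACE sort and 0.93 in the CD74 sort, beside -0.08 and -0.03 over all tested genes, and 0.63 and 0.73 after centring. These 3 genes were called higher in both sorts, as were 4.80% of the 9533 genes tested in both. In the authors' deposited table none of the 10 genes has an adjusted p-value under 0.05. The lowest is 0.163 for Nrp2 in the authors' deposited table of the ACE sort, in which 22 genes pass, and 0.394 for Sema6d in that of the CD74 sort, in which 1 gene passes.

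**Figure D3:**
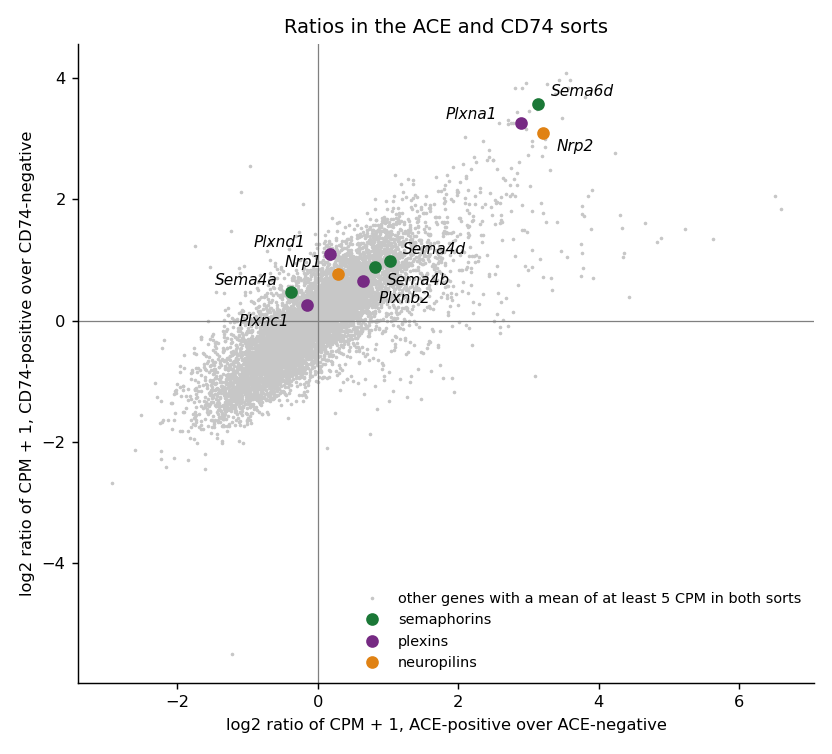
Log2 ratio of CPM + 1 in the ACE sort (x axis) against that in the CD74 sort (y axis) for the 9533 genes tested in both (grey), with the 10 genes in colour. Nrp2 (3.21 and 3.10), Plxna1 (2.89 and 3.26) and Sema6d (3.13 and 3.58) lie together at the upper right, and Sema4a (-0.38 and 0.48) is the one of the 10 furthest left.

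Shares within a family do not depend on how libraries are scaled to each other. Nrp2 made up 53.5% [51.4 to 55.6] of neuropilin reads in ACE-positive and 12.3% [10.4 to 14.5] in ACE-negative cells, and 52.5% [50.8 to 54.3] in CD74-positive and 17.2% [14.0 to 20.8] in CD74-negative cells (exact binomial intervals). Per length, the level of Nrp2 was 0.951 of that of Nrp1 [0.875 to 1.03] in ACE-positive and 0.116 [0.0956 to 0.140] in ACE-negative cells, so both neuropilins stood at a like level in the positive library and Nrp1 led in the negative one. The same ratio was 0.915 [0.853 to 0.981] in CD74-positive and 0.172 [0.134 to 0.217] in CD74-negative cells.

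Among semaphorin reads, Sema4d held 62.5% [61.4 to 63.6] in ACE-positive and 43.2% [41.9 to 44.5] in ACE-negative cells, while Sema4a held 27.0% [26.1 to 28.0] in ACE-positive and 49.8% [48.5 to 51.0] in ACE-negative cells. Sema4d held 50.4% [49.4 to 51.4] in CD74-positive and 42.4% [40.5 to 44.2] in CD74-negative cells. Per length, Sema4d stood at 1.63 times the level of Sema4a [1.55 to 1.71] in ACE-positive cells, the only library of the 4 where it was above Sema4a, and at 0.612 [0.580 to 0.645] in ACE-negative cells. The ratio was 0.914 [0.877 to 0.954] in CD74-positive and 0.642 [0.592 to 0.695] in CD74-negative cells. Plxna1 took 3.08% [2.74 to 3.45] of plexin reads in ACE-positive and 0.449% [0.303 to 0.640] in ACE-negative cells, and 3.10% [2.80 to 3.43] in CD74-positive and 0.375% [0.194 to 0.653] in CD74-negative cells. Plxnb2 led in each library with 57.5% to 68.6% of plexin reads.

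**Figure D4:**
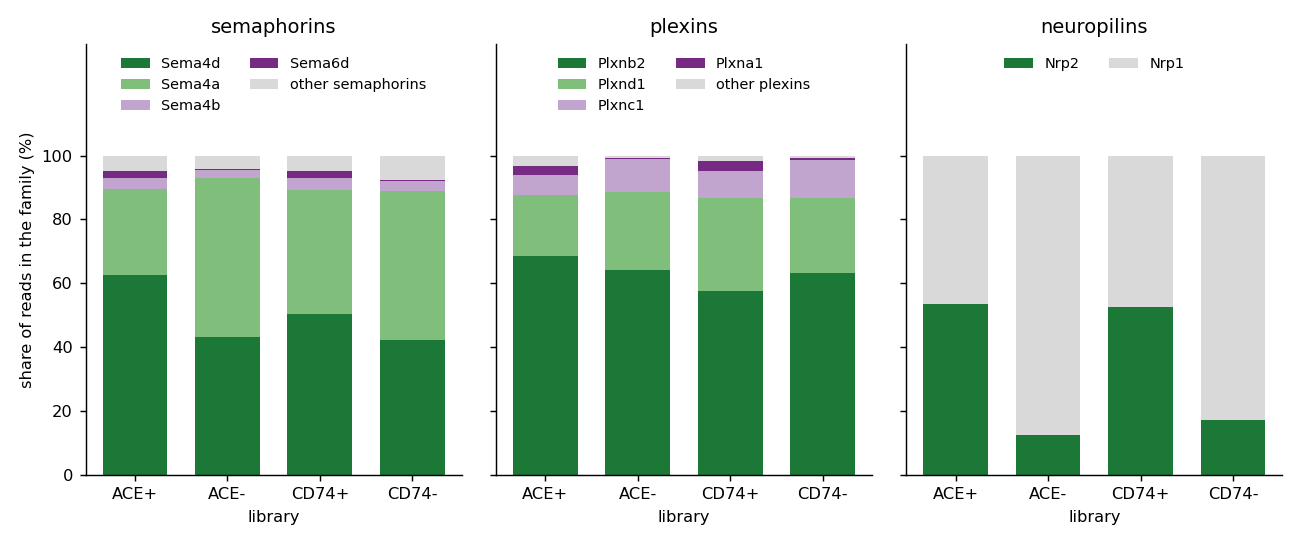
Share of each gene in the reads of all semaphorins, all plexins and both neuropilins (y axis, percent) in the 4 libraries (ACE+ and CD74+, positive; ACE- and CD74-, negative). Nrp2 makes up 53.5% and 52.5% of neuropilin reads in the positive libraries and 12.3% and 17.2% in the negative ones, and Sema4d takes the largest share of semaphorin reads, 62.5%, in the ACE-positive library.

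Levels of different genes were compared per kilobase of exon. In ACE-positive cells the order ran from Plxnb2 at 72.2 CPM per kilobase through Sema4d (56.1), Sema4a (34.5), Plxnd1 (21.1), Nrp1 (9.31), Nrp2 (8.86), Plxnc1 (6.09), Sema4b (4.12) and Plxna1 (2.76) to Sema6d at 1.57. Only the neighbours Nrp1 and Nrp2 had overlapping intervals there. In ACE-negative cells Plxnb2 (46.4) and Sema4a (45.0) overlapped at the top, followed by Sema4d (27.5) and Plxnd1 (18.7), and Nrp1 (7.58) overlapped Plxnc1 (6.77). Below them came Sema4b (2.28), Nrp2 (0.881), Plxna1 (0.276) and Sema6d (0.0948). The order in CD74-positive cells had Sema4a (50.4) above Sema4d (46.1) and was otherwise that of ACE-positive cells, again with Nrp1 (10.9) and Nrp2 (9.99) overlapping. In CD74-negative cells Plxnb2 (39.8) and Sema4a (36.2), and Plxnc1 (7.08) and Nrp1 (6.35), were neighbours with overlapping intervals, and Sema6d (0.0288) was last.

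Summed by role, the 4 plexins stood at 787 CPM [771 to 804] in ACE-positive and 554 CPM [540 to 567] in ACE-negative cells, a fold of 1.42 [1.38 to 1.47]. The 4 semaphorins summed to 657 CPM [643 to 672] in ACE-positive and 468 CPM [456 to 481] in ACE-negative cells, a fold of 1.40 [1.36 to 1.45]. The folds of these sums in the CD74 sort were 1.71 [1.65 to 1.78] for plexins and 1.72 [1.65 to 1.80] for semaphorins. The neuropilins summed to 196 CPM [188 to 204] in ACE-positive and 84.6 CPM [79.5 to 90.0] in ACE-negative cells, and to 225 CPM [217 to 233] in CD74-positive and 75.1 CPM [68.6 to 82.0] in CD74-negative cells, with folds of 2.32 [2.15 to 2.50] and 2.997 [2.73 to 3.30]. None of these folds of sums was centred by gene length, and ratios rose with length in both sorts. The 4 semaphorins held 92.3% to 95.8% of all semaphorin reads over the libraries, and the 4 plexins 96.9% to 99.3% of all plexin reads.

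The rest of the family was scarce. Of 31 family symbols looked up, 30 were listed in both tables, and of the 20 outside the 10 genes only 2 reached a mean of 5 CPM in each sort. In the ACE sort Plxnb3, a plexin of class B, was called higher, with 153 reads (13.3 CPM) in ACE-positive and 18 reads (1.502 CPM) in ACE-negative cells, a fold of 8.88 [5.44 to 15.4]. It had 83 and 4 reads in CD74-positive and CD74-negative cells, a fold of 9.63 [3.62 to 36.2] below the minimum for a call. Sema6b, a membrane semaphorin, was not called in either sort, at 4.53 CPM in ACE-positive and 7.93 CPM in ACE-negative cells and at 10.3 CPM in CD74-positive and 8.97 CPM in CD74-negative cells. Sema4c, a further class 4 ligand, was not called at 5.15 CPM in CD74-positive and 6.54 CPM in CD74-negative cells. In the ACE sort it had 4.01 CPM in ACE-positive and 5.01 CPM in ACE-negative cells, under the minimum.

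The 7 secreted class 3 semaphorins, which mostly need a neuropilin, were scarce in all libraries. Their reads summed to 108 in ACE-positive and 34 in ACE-negative cells, a fold of 3.32 [2.24 to 5.04], and to 128 in CD74-positive and 37 in CD74-negative cells, a fold of 1.61 [1.11 to 2.38]. Sema3a, chosen after its values were seen, had 51 reads in ACE-positive and 0 in ACE-negative cells, and 38 and 10 reads in CD74-positive and CD74-negative cells. The 5 plexins outside the 10 genes had 23 to 153 reads each in ACE-positive and 3 to 18 in ACE-negative cells. Their summed reads differed by a fold of 6.31 [4.64 to 8.76]. In the CD74 sort they had 12 to 83 reads each in CD74-positive and 0 to 21 in CD74-negative cells, a fold of 3.30 [2.21 to 5.09] for the sum. Neither fold was centred by gene length.

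Partners of these proteins outside the family were described from a list of 19 co-receptors, alternative receptors and shedding proteases. In the ACE sort 5 of 13 tested were called higher (Cd72, Kdr, Flt1, Mmp14 and L1cam) and 1 lower (Met), with a median log2 ratio of 0.82 beside -0.08 over all tested genes, of which 9.46% were higher and 8.62% lower. After centring on genes of like length it was 5 higher and 2 lower (9.11% and 4.86% over all tested genes). Of 14 tested in the CD74 sort 6 were called higher (Cd72, Kdr, Flt1, Flt4, Mmp14 and Furin) and 0 lower, with a median of 0.72 beside -0.03 over all tested genes, of which 9.08% were higher and 7.73% lower. After centring it was 5 higher and 0 lower (6.75% and 4.12% over all tested genes), with a median of 0.43. Mmp14, a membrane metalloprotease that can shed Sema4D, stood at 78.1 CPM in ACE-positive and 8.93 CPM in ACE-negative cells, a fold of 8.75 [7.15 to 10.8], and at 64.2 CPM in CD74-positive and 8.82 CPM in CD74-negative cells, a fold of 7.28 [5.58 to 9.67].

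Among receptors of VEGF, which work with neuropilins, Kdr and Flt1 were called higher in both sorts and Flt4 in the CD74 sort. Kdr, which encodes VEGF receptor 2, had 267 reads in ACE-positive and 19 in ACE-negative cells, a fold of 14.7 [9.22 to 24.8], and 326 and 15 reads in CD74-positive and CD74-negative cells, a fold of 10.1 [6.03 to 18.2]. Kdr is also an endothelial marker. The other 3 tested genes of that list were Cdh5, at 3.43-fold [2.48 to 4.83] in the ACE sort and 2.83-fold [1.93 to 4.28] in the CD74 sort, Egfl7, at 0.720-fold [0.512 to 1.01] and 0.362-fold [0.232 to 0.561], and Pecam1, at 1.06-fold [0.943 to 1.19] and 0.941-fold [0.833 to 1.07]. Flt4, the VEGF-C receptor, had 142 reads in CD74-positive and 3 in CD74-negative cells, a fold of 21.97 [7.37 to 108]. The VEGF ligands themselves were not called: Vegfa stood at 22.1 CPM in ACE-positive and 15.9 CPM in ACE-negative cells and at 24.6 CPM in CD74-positive and 16.6 CPM in CD74-negative cells. Vegfb had 8.28 CPM in ACE-positive and 7.34 CPM in ACE-negative cells and 9.59 CPM in CD74-positive and 12.3 CPM in CD74-negative cells.

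Among further receptors and adaptors, Cd72 was called higher in both sorts, and Tyrobp, Trem2 and Itgb1 were not called before centring. Cd72, a B cell and macrophage receptor of Sema4D chosen after its values were seen, stood at 42.5 CPM in ACE-positive and 7.17 CPM in ACE-negative cells, a fold of 5.92 [4.70 to 7.53], and at 32.5 CPM in CD74-positive and 14.9 CPM in CD74-negative cells, a fold of 2.18 [1.75 to 2.74]. B cell markers summed to 172 CPM in ACE-positive and 88.0 CPM in ACE-negative cells, with 4 of 6 called higher (9.46% over all tested genes). They summed to 154 CPM in CD74-positive and 202 CPM in CD74-negative cells, with 1 of 6 called higher (9.08% over all tested genes), none at 0. Centred by gene length, 5 were called higher in the ACE sort (9.11% over all tested genes). In the CD74 sort 1 was then called higher and 1 lower (6.75% and 4.12% over all tested genes). The part of B cells in the Cd72 values was not tested. Tyrobp, the adaptor through which Plexin-A1 signals in mouse osteoclasts, was the most abundant gene of the list and was not called, at 1037 CPM in ACE-positive and 1480 CPM in ACE-negative cells and at 787 CPM in CD74-positive and 1489 CPM in CD74-negative cells. Its log2 ratios were -0.51 in the ACE sort and -0.92 in the CD74 sort, and turned to 0.20 and 0.03 relative to genes of like length. Trem2, the receptor that joins Plexin-A1 to Tyrobp, was also chosen after its values were seen and was not called, at 35.2 CPM in ACE-positive and 43.0 CPM in ACE-negative cells and at 28.4 CPM in CD74-positive and 40.9 CPM in CD74-negative cells. Itgb1, a chain of the integrin that binds Sema7A, was not called in the ACE sort at 522 CPM in ACE-positive and 265 CPM in ACE-negative cells, but was relative to genes of like length (log2 ratio 1.14, against 0.97 uncentred). It stood at 314 CPM in CD74-positive and 289 CPM in CD74-negative cells.

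Inside the cell, genes of semaphorin signalling had medians near 0. In the ACE sort the rule called 4 of 27 tested genes higher and 0 lower (Rras, Arhgef12, Fyn and Dpysl3), with a median log2 ratio of -0.05 (0.04 relative to genes of like length), and 6 higher and 0 lower in the CD74 sort, with a median of 0.10. The background was 9.46% higher and 8.62% lower for the ACE sort, and 9.08% higher and 7.73% lower for the CD74 sort. Centred by gene length, 2 of 27 were called higher in the CD74 sort and 4 of 27 in the ACE sort. The share over all tested genes was then 6.75% in the CD74 sort and 9.11% in the ACE sort. Arhgef12, whose protein binds B-class plexins, stood at 14.5 CPM in ACE-positive and 2.84 CPM in ACE-negative cells, a fold of 5.10 [3.51 to 7.61], and at 13.5 CPM in CD74-positive and 3.496 CPM in CD74-negative cells, a fold of 3.87 [2.51 to 6.26]. Arhgef11, its relative, was 2.98-fold higher [2.43 to 3.67] in CD74-positive cells. Dpysl3, a collapsin response mediator, was 4.24-fold higher [2.91 to 6.33] in ACE-positive cells and was below the minimum for a call in the CD74 sort. The abundant genes Cfl1, which encodes the actin-severing cofilin, and Rap1b, a small GTPase on which plexins act, were not called in either sort. Cfl1 stood at 860 CPM in ACE-positive and 1262 CPM in ACE-negative cells and at 974 CPM in CD74-positive and 1336 CPM in CD74-negative cells. Rap1b stood at 1163 CPM in ACE-positive and 806 CPM in ACE-negative cells and at 715 CPM in CD74-positive and 815 CPM in CD74-negative cells.

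**Figure D5:**
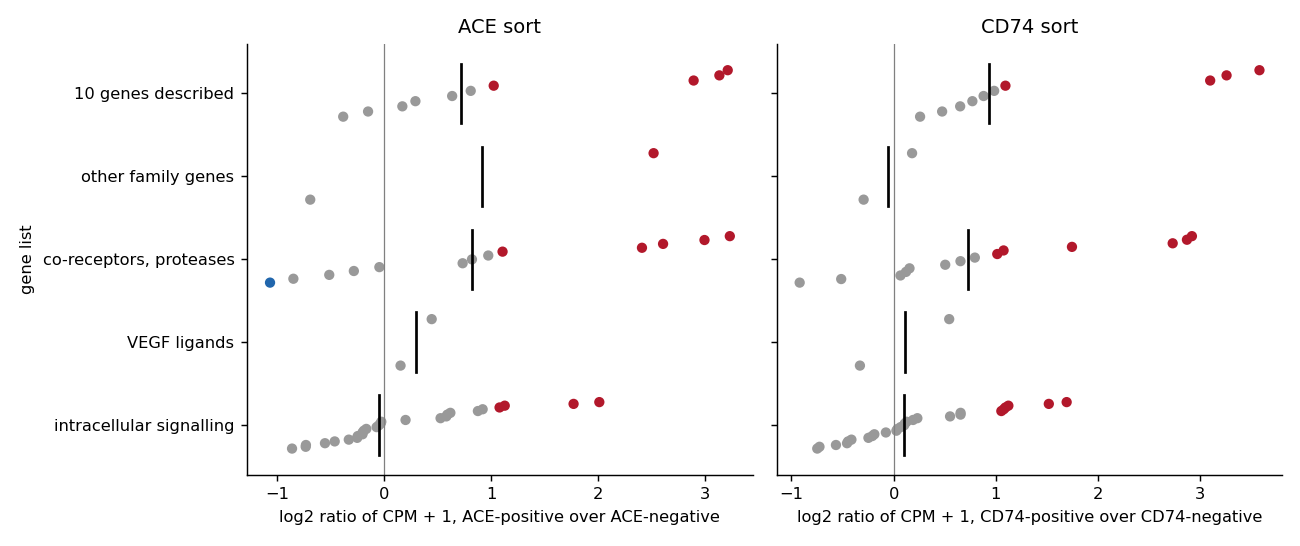
Log2 ratio of CPM + 1 (x axis) for tested genes of each list in the ACE sort (left) and the CD74 sort (right). Red points were called higher and blue points lower, grey points were not called, and black bars are medians, which for the 10 genes are 0.72 and 0.93 and for intracellular signalling -0.05 and 0.10.

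Genes with the most similar pattern were found for Nrp2, Plxna1 and Sema6d by the Euclidean distance between log2 ratios in the ACE and CD74 sorts, over 9533 genes and 4 libraries. Nearest to Nrp2 were Pdgfb, a platelet-derived growth factor chain (distance 0.114), Prdm1, Kdr, Dst and Cmklr1 (0.274). Nearest to Plxna1 were Cadm1, an adhesion molecule (0.112), Dst, Slco2b1, Vcam1 and Sbf2 (0.189). Nearest to Sema6d were C1qb, a complement chain (0.0904), Col14a1 (0.177), Siglec1, Vcam1 and Kcnj10 (0.340). Dst was near both Nrp2 and Plxna1, and Vcam1 near both Plxna1 and Sema6d. Over the 7 alternative settings the log2 ratio of Sema6d ran from 1.84 to 3.92 (ACE sort) and from 1.89 to 5.19 (CD74 sort). That of Plxna1 ran from 2.001 to 3.27 and from 2.18 to 3.76. These ranges are wider than the distances above, and whether the nearest genes stay the same under other settings was not tested.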

How the data were processed

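CD45-positive, Cx3cr1-positive periosteal cells were sequenced as 4 libraries, 1 per group, per the labels. HISAT2 and GRCm38 are named in the submitters' processing notes. What counted the reads, with which strand setting and annotation, and what tested them is not stated there. For each sort the authors deposited a table with a size-factor-normalised signal per library, a linear fold (ratio), its log2 value, p-values and adjusted p-values, per the file headers. The CD74 columns were taken as negative and positive from the table's name and header, since those samples' labels refer to it by another name. Cd74 stood at 2157 CPM in the CD74-positive and 455 CPM in the CD74-negative library, and Ace at 1215 CPM in the ACE-positive and 11.6 CPM in the ACE-negative library. Each also differed in the other sort. Cd74 stood at 3709 CPM in ACE-positive and 559 CPM in ACE-negative cells, and Ace at 233 CPM in CD74-positive and 64.5 CPM in CD74-negative cells. Further columns with values of single libraries numbered 0.

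The planned tests assumed counts, and the deposited values are normalised. Dividing each value by the smallest of its column gave whole reads for 100% of values (tolerance 0.001 reads). Reads were scaled to CPM with TMM (edgeR 4.0.16, R 4.3.3), and tables were kept apart. Ratios used CPM + 1; folds used CPM, with exact conditional binomial 95% intervals, and levels had exact Poisson intervals. The labels name no molecular tags, so intervals cover counting error only. Neither edgeR's quasi-likelihood test nor DESeq2 could be fitted, since single libraries leave no residual degrees of freedom, and calls describe libraries, not conditions. Lengths in the files equal GENCODE M21 exon lengths for the 10 genes. Other software was matplotlib 3.10.9, scipy 1.17.1, pandas 2.3.3 and numpy 2.4.6 on Python 3.11.15.

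The genes and lists were chosen with earlier results of these data known. Named outside the 10 genes were family genes averaging 5 CPM or more, the 2 most abundant and the 2 most different genes of each list, and the 5 nearest in pattern. Marker genes and genes that only make up a count were named after their values were seen. The alternatives were the authors' size factors, plain totals, totals without the 50 most abundant genes, centring by length or GC content in 20 bins, pseudocounts of 0.1 and 5, minimum means of 0 and 10 CPM, and a 1.5-fold threshold.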

Additional observations from a re-analysis of the deposited data

How the results depend on the processing

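No paired analysis was possible because each group holds 1 library, and for the same reason no library could be left out. Of 20 ratios (10 genes in 2 sorts), 19 kept their sign and 16 their call under all 7 alternative settings of scaling, centring and pseudocount. The exceptions were the sign of Plxnc1 in the CD74 sort and the calls of Sema4d in both sorts and of Plxnd1 and Sema4b in the CD74 sort, whose cause was not tested. Nrp2, Plxna1 and Sema6d were called higher in both sorts under each of them; the lowest log2 ratios were 2.80 and 2.66 for Nrp2, 2.001 and 2.18 for Plxna1 and 1.84 and 1.89 for Sema6d (ACE and CD74 sort). A 1.5-fold threshold called 6 of the 10 genes higher in the ACE sort and 8 in the CD74 sort, against 4 in each. Over all genes that threshold called 1858 higher and 2180 lower in the ACE sort, against 913 and 832. In the CD74 sort it called 1988 and 2076, against 882 and 751. Plain totals called 6 of the 10 genes higher in the CD74 sort, where higher calls over all genes rose to 1291. Totals without the most abundant genes called 5 there, with 1124 over all genes. A minimum mean of 10 CPM, which leaves Sema6d untested, called 3 of the 10 genes higher in each sort. Over all genes that minimum called 752 higher in the ACE sort and 757 in the CD74 sort. With no minimum mean 1518 were higher in the ACE sort. Lower calls fell to 469 (ACE sort) and 400 (CD74 sort) when centred by gene length, and to 434 under plain totals in the CD74 sort. Depth limits Sema6d and Plxna1 most, with 2 to 30 reads in the negative libraries.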

Other observations

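The other guidance families were scarce in these cells. Of 18 netrin, slit and Robo genes looked up, 15 were listed in the ACE table and 16 in the CD74 table, and 0 reached a mean of 5 CPM in either sort. Summed, they stood at 38.6 CPM in ACE-positive and 9.59 CPM in ACE-negative cells and at 26.4 CPM in CD74-positive and 9.42 CPM in CD74-negative cells. Of 20 ephrin and Eph genes, 1 reached that mean, the receptor tyrosine kinase gene Epha2. It had 8.54 CPM in ACE-positive and 13.0 CPM in ACE-negative cells, a fold of 0.657 [0.505 to 0.851], and 12.6 CPM in CD74-positive and 11.6 CPM in CD74-negative cells, a fold of 1.09 [0.826 to 1.44], and it was called in neither sort. The ephrin and Eph genes summed to 31.8 CPM in ACE-positive and 24.2 CPM in ACE-negative cells. The 10 semaphorin, plexin and neuropilin genes summed to 1641 CPM in ACE-positive and 1107 CPM in ACE-negative cells and to 1718 CPM in CD74-positive and 946 CPM in CD74-negative cells.

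Summed marker genes of further cell types were unequal between libraries. The 7 markers of dividing cells summed to 968 CPM in ACE-positive and 2320 CPM in ACE-negative cells and to 2031 CPM in CD74-positive and 2734 CPM in CD74-negative cells. Fibroblast and periosteal progenitor markers summed to 2618 CPM in ACE-positive and 846 CPM in ACE-negative cells and to 2038 CPM in CD74-positive and 1337 CPM in CD74-negative cells. In the ACE sort 4 of 8 tested were called higher and 1, Thy1, lower (9.46% and 8.62% over all tested genes). In the CD74 sort 0 were called higher and 1, Thy1, lower (9.08% and 7.73% over all tested genes). Their median log2 ratios were 0.99 (ACE sort) and 0.32 (CD74 sort), or 0.88 and 0.07 relative to genes of like length. The 8 mast cell and basophil markers went opposite ways, with 122 CPM in ACE-positive and 224 CPM in ACE-negative cells and 744 CPM in CD74-positive and 171 CPM in CD74-negative cells. Erythroid markers did so too, with 807 CPM in ACE-positive and 405 CPM in ACE-negative cells and 516 CPM in CD74-positive and 1270 CPM in CD74-negative cells. Both lists hold short genes, and centring by gene length brought 1 sort of each closer to no difference. The median log2 ratio of mast cell and basophil markers moved from -0.96 to -0.25 (ACE sort) and from 1.93 to 2.17 (CD74 sort). That of erythroid markers moved from 1.27 to 1.82 (ACE sort) and from -1.19 to -0.27 (CD74 sort).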
